A study of Mus musculus with 16 samples.

Results

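Peaks of open chromatin that were accessible mainly in pancreas tumors were examined in cells of mouse pancreatic ductal adenocarcinoma (PDAC). They were chosen by their level: the mean normalized read count of the 6 pancreas samples had to reach 40 and be at least 3 times both the mean of the 4 liver samples and the mean of the 6 lung samples. Of 136630 nuclear peaks, 6398 (4.68%) met this rule and are called pancreas-open peaks or members here. The same rule turned to the liver gave 8417 peaks and turned to the lungs 180. Because the organs' levels chose the members, differences of the pancreas from the other organs are given as a description and were not tested, and the tests drawn on are those of the response to Smad4.

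The cells were KC-shSmad4 tumor cells, derived from primary pancreatic tumors of engineered mice with a hairpin RNA, switched on by doxycycline, that silences Smad4, which is the common partner of the SMAD proteins that carry TGF-beta signals to DNA. They carry the red reporter mKate2 and were transplanted into athymic nude mice, aged 6 to 8 weeks and on doxycycline chow, into the pancreas (Panc), through the spleen into the liver (Liv) or through the tail vein into the lungs (Lung). In the OFF groups doxycycline, and with it the hairpin, was kept on. In the ON groups it was withdrawn 4 weeks (pancreas), 5 weeks (liver) or 6 weeks (lungs) after injection, and Smad4 had been restored for 14 days, so that organ and time of growth cannot be told apart. Each sample was 60000 mKate2-positive cells sorted from its own mouse, with n = 3 in Panc_OFF, Panc_ON, Lung_OFF and Lung_ON and n = 2 in Liv_OFF and Liv_ON. All samples carry the hairpin, and nude hosts keep their fibroblasts, endothelium and myeloid cells. The hairpin acts on RNA, so accessibility of the Smad4 locus is no check of its loss.

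ATAC-seq reads cluster where the Tn5 transposase reaches DNA that is free of nucleosomes, at promoters of active genes and at distal enhancers. Which enhancers are open depends on the transcription factors a cell holds, so that sets of peaks open in 1 tissue tend to carry the sites of that tissue's factors. E-boxes are bound by basic helix-loop-helix factors, a family that includes Twist and Tcf4 in mesenchymal cells and Ptf1a in acinar cells. In pancreatic cancer, tumor cells range from an epithelial state with tight junctions and keratins to a mesenchymal state, and the organ also holds many fibroblasts, which lay down collagen around the tumor.

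The central 200 bases of 7 members are printed to show the sequence motifs described below. They are read from the plus strand of GRCm38.p6 (the mm10 build), with capitals marking a match to an E-box (CAGCTG, or CAGATG and its reverse CATCTG), to AP-1 (TGANTCA), to RUNX (TGTGGTT) or to TEAD (GGAATGC or GGAATGT) on either strand. The member with the largest ratio of pancreas over the other organs (chr7:73294624-73294823), 80.4 kb from the start of Rgma, has an AP-1 match. The leading member 23.1 kb from Ror2 (chr13:53309747-53309946) and the promoters of Fap (chr2:62573871-62574070) and Sema5a (chr15:32245267-32245466) have an E-box. A Gli2 intron (chr1:119034115-119034314), lower with Smad4, has 2 E-boxes. The promoter of Col3a1 (chr1:45311478-45311677) and the member 2.59 kb from Cux1 (chr5:136570230-136570429), higher with Smad4, have no match in this window.
Rgma-side member: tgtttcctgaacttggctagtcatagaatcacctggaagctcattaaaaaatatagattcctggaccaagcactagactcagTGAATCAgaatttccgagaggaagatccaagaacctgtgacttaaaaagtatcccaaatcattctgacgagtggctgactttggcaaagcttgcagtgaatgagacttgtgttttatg
Ror2-side member: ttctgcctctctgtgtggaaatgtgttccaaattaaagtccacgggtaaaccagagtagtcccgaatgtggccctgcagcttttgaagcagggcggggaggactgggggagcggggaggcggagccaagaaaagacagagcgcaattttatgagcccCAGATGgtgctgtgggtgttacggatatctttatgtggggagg
Fap promoter: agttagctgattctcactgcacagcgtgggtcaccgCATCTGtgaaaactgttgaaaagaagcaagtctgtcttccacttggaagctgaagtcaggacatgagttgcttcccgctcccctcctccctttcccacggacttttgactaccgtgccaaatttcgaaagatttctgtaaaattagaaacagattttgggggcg
Sema5a promoter: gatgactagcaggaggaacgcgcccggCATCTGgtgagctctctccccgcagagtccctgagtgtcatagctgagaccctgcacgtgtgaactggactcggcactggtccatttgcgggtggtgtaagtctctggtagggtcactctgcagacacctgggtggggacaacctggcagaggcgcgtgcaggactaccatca
Gli2 intron: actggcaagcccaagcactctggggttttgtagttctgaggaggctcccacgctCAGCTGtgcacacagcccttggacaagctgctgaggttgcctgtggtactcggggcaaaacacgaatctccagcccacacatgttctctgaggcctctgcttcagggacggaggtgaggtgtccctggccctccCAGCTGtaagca
Col3a1 promoter: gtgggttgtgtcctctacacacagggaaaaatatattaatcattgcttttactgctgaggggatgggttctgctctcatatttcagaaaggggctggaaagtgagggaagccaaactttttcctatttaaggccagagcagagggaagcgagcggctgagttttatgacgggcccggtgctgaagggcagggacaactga
Cux1-side member: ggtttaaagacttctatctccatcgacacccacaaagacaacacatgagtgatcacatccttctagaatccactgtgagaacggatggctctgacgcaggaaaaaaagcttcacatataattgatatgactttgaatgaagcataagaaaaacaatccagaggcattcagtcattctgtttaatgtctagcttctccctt

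Members were of moderate height. Their mean over the pancreas samples had a median of 87.1 normalized counts, 2700 reached 100, 105 reached 500 and 9 reached 1000. Pancreas levels were at least 5 times both other organs at 3651 members and at least 10 times at 1030. Just inside the level threshold lay peaks with pancreas means of 40.02, 40.03 and 40.04, and just outside it 39.99, 39.98 and 39.98. For the fold, the nearest members had ratios within 0.001 above 3, and the nearest peaks outside had ratios within 0.002 below it, so the edge of the set cuts through a continuum.

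The members' level differed widely among the pancreas libraries. The median member had 59.8, 70.6 and 103 normalized counts in Panc_OFF and 131, 115 and 42.2 in Panc_ON. In the liver it had 12.3 and 8.36 (OFF) and 18.6 and 7.11 (ON), and in the lungs 15.6, 8.69 and 13.8 (OFF) and 14.6, 12.5 and 10.3 (ON). All pancreas libraries stood above all others, which the rule favored, but both the highest and the lowest of them were Panc_ON libraries. Panc_ON_3 was the lowest of the 6 pancreas libraries at 80.2% of members, against 27.8% of all peaks, and its count was a median of 0.415 of the mean of the other 5 at members and 0.922 at all peaks. Taken alone it met the rule at 1543 members (24.1%), whereas Panc_ON_1 alone did so at 6319 and Panc_OFF_1 at 3464. All 6 pancreas values exceeded all 10 others at 5069 members (79.2%), beside 7.03% of all peaks. The rule chose members on these same values, so a high share was built in. Panc_ON_3 also had the most reads in peaks (38218315) and Panc_ON_2 the fewest (22994669). In the pancreas libraries other than Panc_ON_1 (35571973 reads) the median at the members was lower the deeper the library, and the part of depth in this was not tested. Over all samples, 1 read was worth between 0.766 and 1.39 normalized counts. In the liver and lungs a typical member thus rests on few reads, and its values there carry a large counting error.

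**Figure D1:**
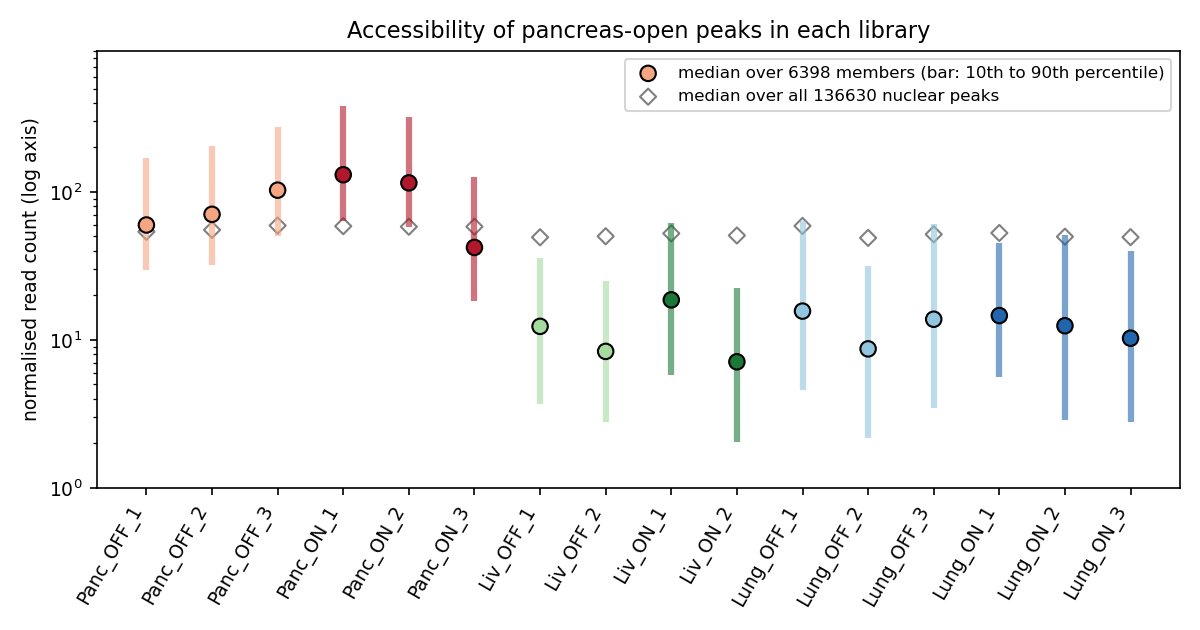
Normalized read count (log axis) at the 6398 pancreas-open peaks in each of the 16 libraries, with filled points for the median and bars for the 10th to 90th percentile, and open diamonds for the median of all 136630 nuclear peaks. Panc_ON_3 (median 42.2) sits apart from Panc_ON_1 (131) and Panc_ON_2 (115), while medians of all peaks hardly vary.

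Members were less often at promoters than peaks at large. Promoters, taken as 1000 bp around a start site, held 434 members (6.78%), against 14.6% of all peaks and 8.64% of the liver-open peaks. Introns held 3546 (55.4%, against 45.4% of all peaks), intergenic sequence 2254 (35.2% against 37.1%) and exons 164 (2.56% against 2.90%). The median distance to the nearest start site was 18.5 kb, compared with 11.8 kb over all peaks, and 1888 members (29.5%, against 21.0%) had no protein-coding start within 100 kb. Width (median 609 against 589 bp) and GC content (45.4% against 45.8%) were close to those of all peaks. Members made up 5.91% of the peaks on chromosome 18, 5.88% on 15 and 5.83% on 1, but 2.53% on 19, 2.76% on X and 3.16% on 4.

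Members were assigned to 2575 protein-coding genes by the nearest start site within 100 kb, of which 1633 had 1 member, 136 had at least 5 and 12 at least 10. Ror2, a receptor of Wnt5a, had 15 members among 21 assigned peaks, and Dlc1, a regulator of the actin cytoskeleton, had 15 of 34. Plcb4, a phospholipase C, followed with 14 of 20, Tcf4 with 13 of 53, the hedgehog effector Gli3 with 12 of 19 and the actin-binding palladin (Palld) with 12 of 55. Col1a2, a chain of type I collagen, had 11 of 14 and Lrig1, a brake on ErbB receptors, 11 of 43. Disp1, which releases hedgehog ligands, Rgma, a guidance molecule and BMP co-receptor, Sema5a, a semaphorin, and Timp3, an inhibitor of matrix proteases, had 10 each of 25, 19, 14 and 27. By position, the densest window of 500 kb lay on chromosome 4 from 84000001 to 84500000, where 21 of 32 peaks were members and none had a coding start within 100 kb. Other dense windows held Sema5a (17 of 29 peaks), Plcb4 (17 of 30) and Nuak1 (17 of 47).

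Members were most frequent at fibroblast and mesenchymal genes among the 13 gene lists. Of the 124 peaks assigned to 14 fibroblast markers, 42 (33.9%) were members, beside 4.68% of all peaks, and 12 of the 14 genes had at least 1. Members made up 31 of 232 peaks (13.4%) at 15 mesenchymal genes, of which 9 had at least 1. Most of the 31 lay at Tcf4 (13 of its 53 peaks) and Prrx1 (8 of 18), and no other gene had more than the 3 of Zeb1. Twist1, Twist2, Snai1, Vim, Foxc2 and Cdh11 had none. At epithelial lists they were sparse, with 1 of 233 peaks (0.429%) at ductal genes, none of 127 at gastric mucous genes, 7 of 420 (1.67%) at pancreas and foregut factors and 3 of 145 (2.07%) at basal and squamous genes. Acinar genes (4 of 87, 4.60%) and endocrine genes (4 of 113, 3.54%) were near the share of all peaks. Endothelial markers had 8 of 96 (8.33%), immune markers 1 of 47, hepatocyte markers 2 of 58 and lung epithelium markers 3 of 58.

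**Figure D2:**
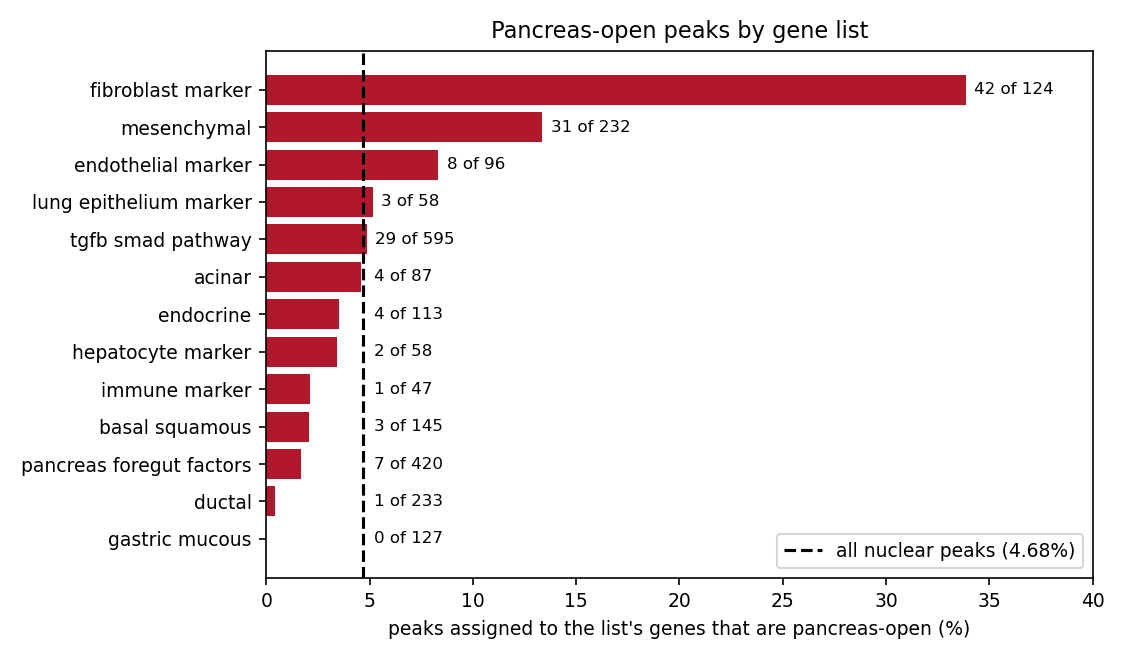
Share of the peaks assigned to each gene list that were pancreas-open (bars, in percent), with counts beside the bars and a dashed line at the 4.68% of all nuclear peaks. The fibroblast list (42 of 124) and the mesenchymal list (31 of 232) lie far to the right of the line, and the ductal (1 of 233) and gastric mucous (0 of 127) lists to its left.

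Some promoters of matrix genes were members, with low counts in the liver and lungs, and others were open in every organ. The promoter of Col1a1, a chain of type I collagen, was no member, with 1258 to 1727 normalized counts in the pancreas, 728 to 839 in the liver and 909 to 1172 in the lungs, and neither was that of Fn1, fibronectin, with 1794 to 2710, 752 to 1406 and 1480 to 1769. The next examples were picked after their values were seen. The promoter of Lum, a collagen-binding proteoglycan (chromosome 10, 97564896 to 97565979), had 115, 176 and 272 normalized counts in Panc_OFF and 185, 194 and 62.9 in Panc_ON. It had 33.3 and 6.97 in Liv_OFF, 29.1 and 5.08 in Liv_ON, 6.44, 5.43 and 6.03 in Lung_OFF and 5.62, 7.67 and 1.87 in Lung_ON. The pancreas groups overlapped each other and no other group, and the first library of each liver group was the higher one. The promoter of Fap, the fibroblast activation protein (chromosome 2, 62573632 to 62574310), had 92.2, 147 and 229 in Panc_OFF and 201, 139 and 55.2 in Panc_ON, and between 5.57 and 18.5 in the 10 other libraries. The promoter of Dcn, decorin (chromosome 10, 97479141 to 97479811), had 89.7, 94.7 and 166 in Panc_OFF, 196, 149 and 49.8 in Panc_ON and at most 23.4 elsewhere. At all 3 promoters Panc_ON_3 was the lowest pancreas library. The promoter of Col3a1, type III collagen (chromosome 1, 45311069 to 45312087), averaged 248 ± 99.4 (SD, n = 6) in the pancreas, 30.7 ± 28.6 (SD, n = 4) in the liver and 52.0 ± 30.6 (SD, n = 6) in the lungs. At Col1a2 the highest member lay 47.4 kb from the start (531 ± 267, SD, n = 6, in the pancreas and 15.2 ± 7.14, SD, n = 6, in the lungs), whereas the promoter itself rested on 1 library, Panc_OFF_3, with 185 against 6.13 to 48.7 in the other 5.

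The 6 members of highest pancreas mean were the promoter of Dlc1 (1677 normalized counts), that of the small RNA gene Gm23363 within Dnm1 (1614), that of Mrgprf, a receptor gene (1285), an intron of Fmnl3, a formin (1257), an intergenic site on chromosome 7 (1232) and the promoter of the noncoding gene Carmn (1215). Dlc1 (chromosome 8, 36610625 to 36614635) had 1305, 1218 and 1660 in Panc_OFF and 2635, 1987 and 1260 in Panc_ON, against 457 to 763 in the liver and 209 to 662 in the lungs. It passed the rule narrowly, with a ratio of 3.07. Among the 10 highest promoters of coding genes, Sema5a averaged 941 ± 446 (SD, n = 6) in the pancreas and 94.7 ± 80.3 (SD, n = 4) and 99.3 ± 29.4 (SD, n = 6) in the liver and lungs. Prrx1, a homeobox factor of mesenchyme, averaged 667 ± 259 (SD, n = 6), against 82.3 ± 50.6 (SD, n = 4) and 200.4 ± 75.2 (SD, n = 6). At Tcf4, 2 of 5 promoter peaks were members, and the 5 together summed to 2542 to 4091 in the pancreas, 1841 to 2109 in the liver and 1865 to 2368 in the lungs. The promoter of Pax6, a factor of endocrine cells and of the eye, was the one member promoter of the endocrine list (597 ± 216, SD, n = 6, in the pancreas). Here Panc_ON_3, with 789, was not low.

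**Figure D3:**
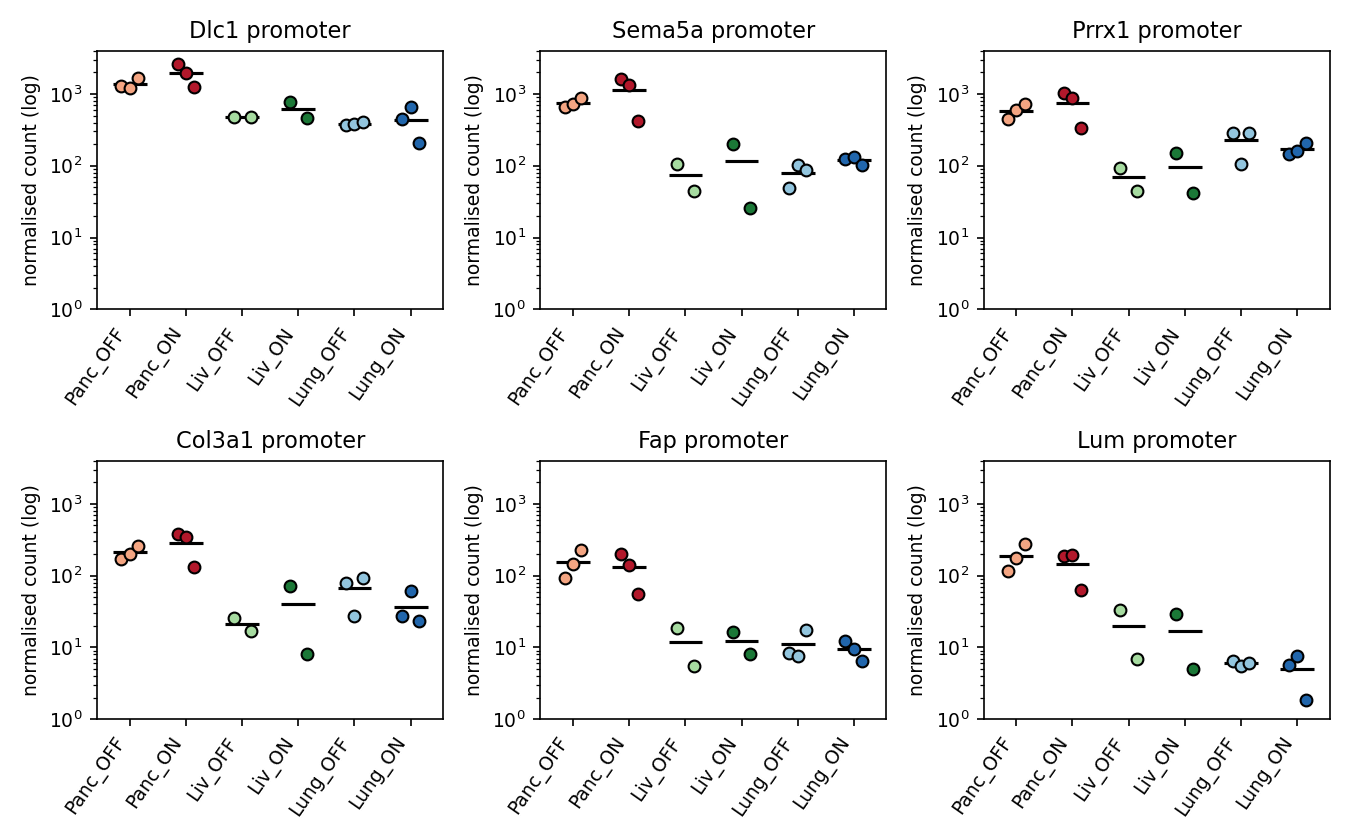
Normalized read counts (log axes) of 6 promoter members in the 6 groups, with 1 point per library and a line at the group mean. At Col3a1, Fap and Lum the third Panc_ON library is the lowest pancreas point (130, 55.2 and 62.9), and at the 6 promoters Panc_OFF and Panc_ON overlap.

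A distal member assigned to Cdh5, of endothelial cadherin, lies 77.8 kb from its start (chromosome 8, 104022240 to 104023798) and had 524, 514 and 915 in Panc_OFF and 1213, 937 and 297 in Panc_ON, against 8.69 to 82.7 elsewhere. The promoter of Cdh5 itself was not a member and had only 26.8 to 85.4 in the pancreas libraries, and the nearest start need not be that of the gene a distal peak serves. Cpa1, an acinar carboxypeptidase, had an intronic member at 45.8 ± 21.3 (SD, n = 6) in the pancreas.

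Fibroblast markers as a whole moved with the members among the pancreas libraries. The 16 promoter peaks of the list summed to 4286, 4895 and 5774 normalized counts in Panc_OFF and 7496, 5784 and 3934 in Panc_ON, to between 2065 and 2539 in the liver and between 2356 and 3274 in the lungs. This is the order of the libraries by their member median, from Panc_ON_3 to Panc_ON_1. The 6 of these promoters that were not members summed to 3322, 3772 and 3896 in Panc_OFF and 5539, 4449 and 3292 in Panc_ON, so the order was the same without the members. Ductal promoters, the epithelial check of the label, were open throughout. They summed to 37659, 37471 and 34127 in Panc_OFF and 28937, 26040 and 31164 in Panc_ON, so Panc_ON lay wholly below Panc_OFF. Panc_ON_1 and Panc_ON_2, the highest in the member median, were the lowest here. The sums were 57387 to 75630 in the liver and 35192 to 49908 in the lungs. Immune promoters summed to 418 to 632 in the pancreas, below the liver (652 to 982) and the lungs (675 to 886), on 4 promoter peaks of 18 genes. Endothelial promoters summed to 1322 to 1645, 1276 to 1504 and 1486 to 2421. The part of fibroblasts, or of mesenchymal tumor cells, in the members' level was not tested. In bulk samples a change in the number of cells with an open site cannot be told apart from a change in accessibility per cell.

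E-boxes were more frequent in the members than in all peaks. CAGCTG occurred in the central 200 bases of 1313 members (20.5%), against 12.3% of all peaks and 11.1% of the liver-open peaks. A second E-box, CAGATG, searched after the first had been seen, occurred in 1690 (26.4%), against 16% and 12.1%. Either form was found in 2694 members (42.1%), compared with 26.3% of all peaks and 21.8% of the liver-open peaks. Outside promoters the shares were similar (CAGCTG in 20.6% of members and 12.4% of all peaks), and among members with a ratio of at least 5 they were 21.0% and 29.2% for the 2 forms. TEAD matches were found in 11.0% of members against 8.17% of all peaks, and RUNX matches in 10.4% against 7.91% (4.88% of liver-open peaks).

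Several motifs of epithelial and hepatic factors, though not all, were less frequent than in all peaks. FOX matches (TGTTTAC or TGTTTGC) were found in 5.45% of members, 9.38% of all peaks and 11.0% of the liver-open peaks, and GATA matches (AGATAAG or TGATAAG) in 3.58%, 5.97% and 7.76%. HNF4 (CAAAGTCCA) was at 0.141%, 0.794% and 1.76%, HNF1 (GTTAATNAT) at 0.391%, 1.02% and 1.63%, and GRHL (AACCNGTT) at 1.09%, 1.68% and 4.18%. KLF (CCNCNCCC) was found in 16.8% of members, 20.9% of all peaks and 24.4% of the liver-open peaks. AP-1 was frequent, at 25.7% of members, but also at 28.1% of all peaks, and it was at 16.3% in the liver-open peaks. Among rare motifs, MEF2 (TATTTATAG) was at 0.750% of members against 0.405% of all peaks, SRF (CCATATTAG) at 0.141% against 0.0607% and ETS (CCGGAAGT) at 0.0781% against 0.452%, on 48, 9 and 5 members. Outside promoters ETS was at 0.0838% against 0.245%. The palindromic SMAD motif GTCTAGAC was rare, at 18 members. A match is a string of letters and not a measured binding site, and several families can match in 1 peak.

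**Figure D4:**
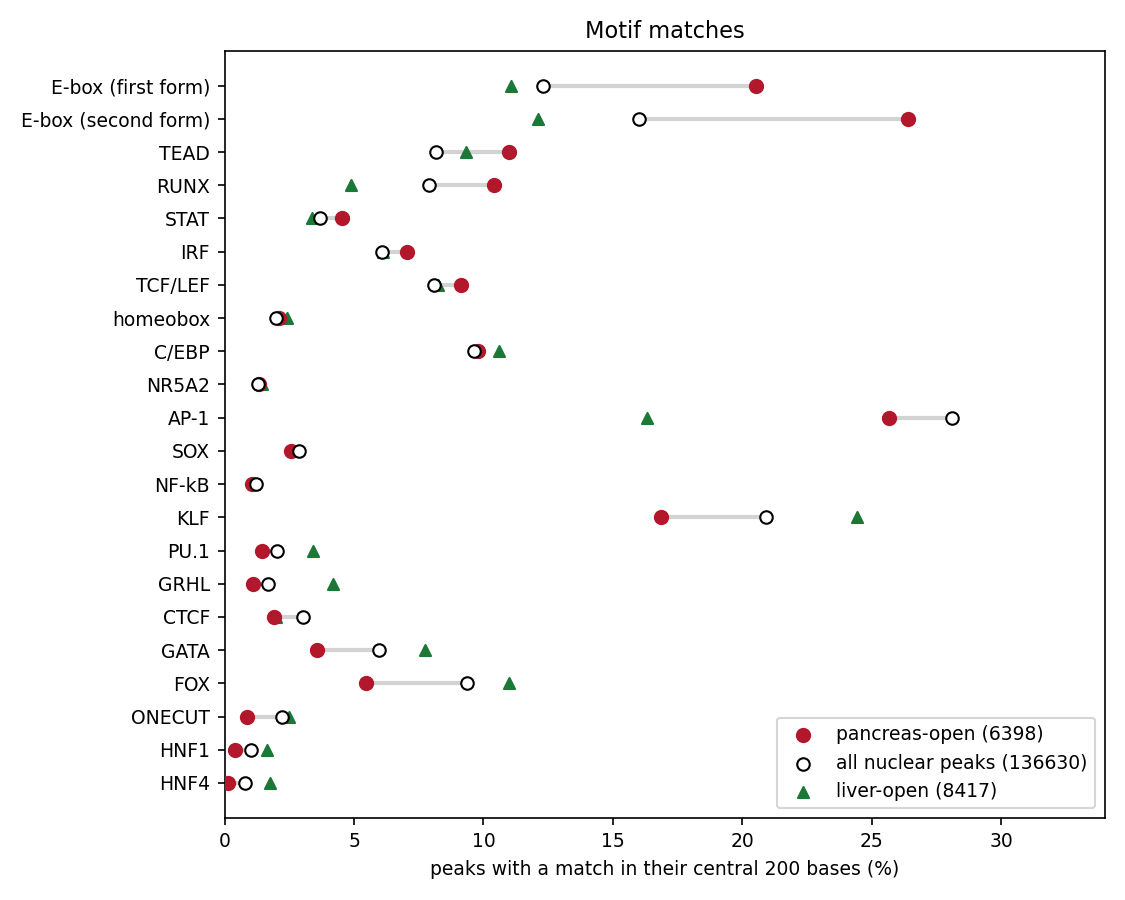
Share of peaks with a motif match in their central 200 bases (in percent) for the pancreas-open peaks (red), all nuclear peaks (open circles) and the liver-open peaks (green triangles), with families ordered by the ratio of the first share to the second and those under 0.5% of all peaks not drawn. The E-box forms lie at the top of those drawn (20.5% and 26.4% against 12.3% and 16%), and FOX, ONECUT, HNF1 and HNF4 at the bottom.

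The comparison of Smad4-on with Smad4-off cells asked whether these sites follow the return of Smad4. Few were called in the pancreas. A call required a log2 fold change of 0.58 or more in either direction with an adjusted p no higher than 0.1 (limma on log2 of the normalized count + 1, Benjamini-Hochberg over all nuclear peaks). In the pancreas 7 members (0.109%) were called, 5 higher and 2 lower with Smad4, whereas 3.42% of all peaks were called (0.364% higher and 3.06% lower). The members' log2 fold change had a median of 0.20, with a 10th to 90th percentile of -0.35 to 0.73, against a median of 0.04 over all peaks. Its standard error was larger, with a median of 0.56 against 0.36. The estimate of the spread was shared with the liver and lung samples, where members have few reads. Fitted on the pancreas groups alone, 63 members (0.985%, against 4.30% of all peaks) were called, 59 of them higher. A site that was not called may still respond. Panc_ON lay wholly above Panc_OFF at 213 members (3.33%, against 12.2% of all peaks) and wholly below at 39 (0.610% against 13.3%).

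The median rested on single libraries. Without Panc_ON_3 it was 0.72 and 58 members (0.907%) were called (57 higher), against 3.57% of all peaks. Without Panc_ON_1 it was -0.11 with 2 calls (0.0313% against 1.23%), and without Panc_ON_2 -0.01 with 1 call (0.0156% against 1.35%). Without Panc_OFF_2 no member was called, and without Panc_OFF_1 or Panc_OFF_3 there was 1 call each (0.0156%). Of all peaks, 0.332%, 0.908% and 1.24% were called in these settings, so the share of all peaks fell too. Samples of other organs, which share the estimate of the spread, moved the count too. It was 4 (0.0625%) without Lung_ON_2, 16 (0.250%) without Lung_OFF_1 and 22 (0.344%) without Lung_OFF_2. Of all peaks, 2.65%, 6.05% and 5.15% were called in these settings. With the replicate number of the lung samples as a block there were 23 calls (0.359%, against 6.51% of all peaks). When the members were also chosen anew without Panc_ON_3 (7276 peaks), 65 were called (0.893%, against 3.57% of all peaks), 64 of them higher.

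The members called in the pancreas were distal and of no common family. The member 2.59 kb from Cux1, a homeobox factor (chromosome 5, 136570035 to 136570626), had 81.1, 55.4 and 74.1 in Panc_OFF and 265, 202 and 106 in Panc_ON. It rose by a log2 fold change of 1.35 ± 0.34 (SE; adjusted p = 0.0557). The groups did not overlap, and Panc_ON_3 was the lowest of its group here too. An intergenic member on chromosome 8 (6806854 to 6807392) rose from 32.5, 19.7 and 32.4 to 96.0, 116 and 64.4, by 1.67 ± 0.42 (adjusted p = 0.0540). A member 29.0 kb from Sdr9c7, of the short-chain dehydrogenase family, rose by 1.73 ± 0.47 (adjusted p = 0.0737), 1 in an intron of the neuronal factor Npas3 by 1.65 ± 0.47 (adjusted p = 0.0891) and 1 on chromosome X (80799612 to 80800925) by 1.55 ± 0.46 (adjusted p = 0.0979).

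Of the 2 lower members, 1 lies in an intron of the noncoding gene A330044P14Rik on chromosome 6 (123971335 to 123973195), among clustered vomeronasal receptor genes. It had 220, 363 and 280 in Panc_OFF and 17.8, 60.7 and 37.6 in Panc_ON, a change of -2.99 ± 0.57 (log2, SE; adjusted p = 0.0194). It had lower counts with Smad4 in the liver (91.3 and 57.1 against 24.5 and 9.14) and the lungs (72.7, 67.4 and 56.9 against 43.8, 5.75 and 23.3), and the groups did not overlap in any organ. Genes of this family are near copies of each other, so reads may be assigned to the wrong copy. The other, in an intron of the zinc finger gene Zfp532 on chromosome 18 (65584992 to 65585310), fell by 1.20 on the log2 scale (SE 0.34, adjusted p = 0.0811). Over the alternative settings the vomeronasal member kept its call in 27 of 28, the intergenic member on chromosome 8 in 23 of 29, the Cux1 member in 22 and the others in 15 to 20, and none changed sign.

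In the metastases the members were near closed and few or none were called. In the liver 1 member was called, against 0.55% of all peaks. It lies in an intron of Hs3st3a1, a heparan sulfate sulfotransferase (chromosome 11, 64510986 to 64511564), and had 8.64 and 1.39 in Liv_OFF and 73.4 and 21.3 in Liv_ON (log2 fold change 3.08 ± 0.64, adjusted p = 0.0676). Its call was lost without Liv_OFF_2, Liv_ON_1, Lung_ON_2, Lung_ON_3 or any of the Panc_OFF samples. No member was called without Lung_ON_2 (against 0.195% of all peaks) or a Panc_OFF sample (against 0.203% to 0.217%). Without Lung_OFF_3, 2 were called (0.0313% against 0.451%). There were 14 calls (0.219%) without Lung_OFF_1, 15 (0.234%) without Lung_OFF_2 and 17 (0.266%) without Panc_ON_3. Of all peaks, 1.61%, 1.73% and 1.01% were called in these 3 settings. The members' median log2 fold change in the liver was 0.26 with all samples. It was 0.92 without Liv_ON_2, with Liv_ON_1 as the lone sample of its group, and -0.38 without Liv_ON_1. Over all peaks these medians were 0.018, 0.017 and 0.005. In the lungs limma called no member, against 0.00366% of all peaks (5 peaks). Of the members, 315 (4.92%, against 7.11% of all peaks) had an unadjusted p under 0.05. On the recovered reads edgeR called none and DESeq2 25 (0.391%, against 0.684% of all peaks). Without Lung_ON_1 limma called 1 (0.0156%, against 0.0161% of all peaks). Without a block, neither limma nor edgeR called a member for a different Smad4 effect in the lungs or liver than in the pancreas. Both called 0% of all peaks. DESeq2 called 18 members (0.281%, against 1.39% of all peaks) for the lungs and 0 for the liver. At an unadjusted limma p under 0.05 there were 190 members (2.97%, against 11.0% of all peaks) for the lungs. For the liver there were 75 (1.17% against 3.95%). Without Lung_OFF_2, 33 members (0.516%, against 2.93% of all peaks) passed for the lungs. The lung replicate numbers were also taken as a block, a pairing that the study does not name. Limma then called 2 members in the lungs (0.0313%, against 0.0300% of all peaks). For lungs minus pancreas it called 5 members (0.0781%, against 1.75% of all peaks).

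**Figure D5:**
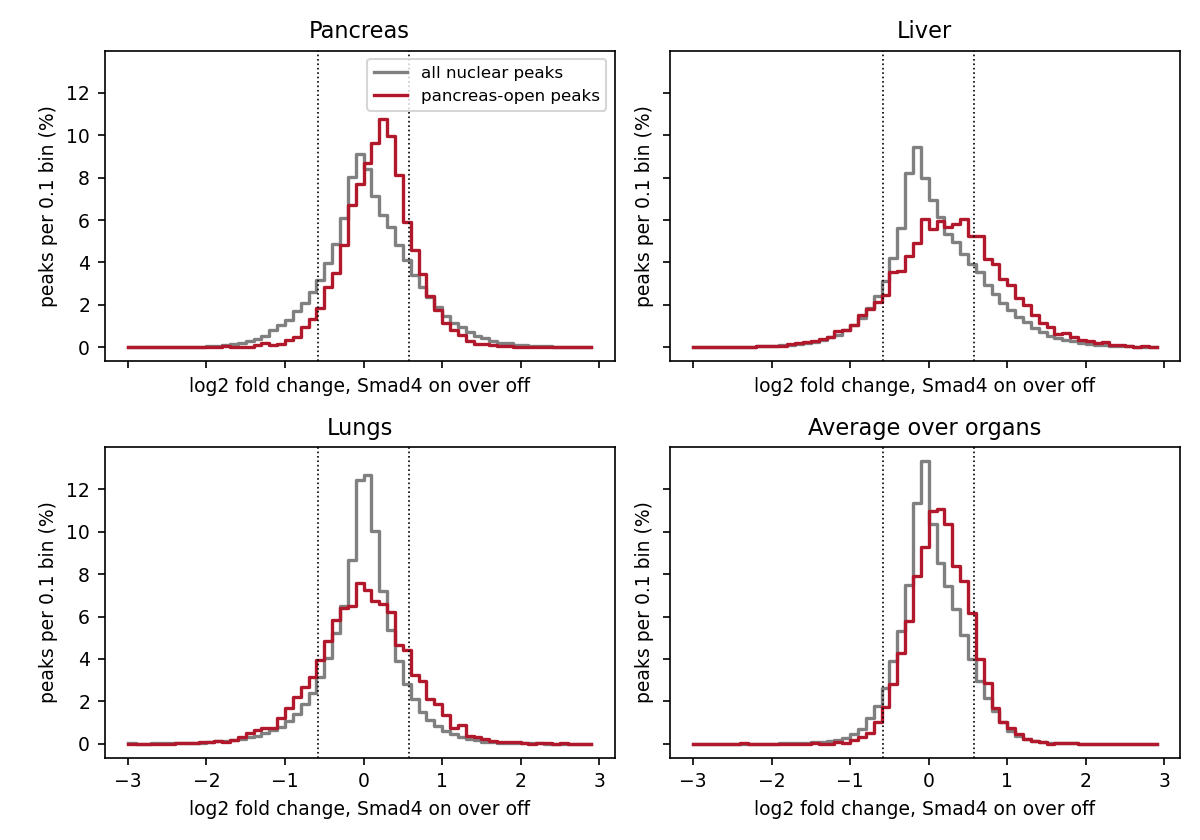
Distribution of the log2 fold change of Smad4-on over Smad4-off cells in each organ and averaged over organs, as the percentage of peaks per bin of 0.1, for the pancreas-open peaks (red) and all nuclear peaks (gray), with dotted lines at the threshold of 0.58 in either direction. In the pancreas the red curve is shifted to the right (median 0.20 against 0.04), a shift that reverses without Panc_ON_1 (-0.11), and in the lungs both are centered near 0.

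Averaged over the organs, weighted equally, 133 members (2.08%) were called, against 6.62% of all peaks. Of these 121 were higher with Smad4 and 12 lower, against 3.61% and 3% of all peaks in these directions. The higher members had median log2 fold changes of 0.76 (pancreas), 1.45 (liver) and 0.86 (lungs), and 113 of the 121 had the same sign in all 3 organs. They were called on the average of these same organs, so such medians and agreement in sign were favored by the choice. The count depended on many single libraries, and so did the share of all peaks called. The members' median average log2 fold change was 0.14 with all samples, -0.07 without Liv_ON_1 and 0.36 without Liv_ON_2. The count was 367 (5.74%, against 6.61% of all peaks) without Panc_ON_3 and 304 (4.75% against 11.9%) without Lung_OFF_1. It was between 54 and 82 (0.844% to 1.28%, against 3.89% to 6.33%) without Panc_OFF_1, Panc_OFF_2, Panc_ON_1, Panc_ON_2, Lung_OFF_2, Lung_ON_1 or Lung_ON_2. With the lung replicate block it was 203 (3.17% against 8.33%).

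At 7 of the higher and 2 of the lower members the groups did not overlap in any of the 3 organs and lay on the same side. These were 0.109% and 0.0313% of the members, against 0.383% and 0.415% of all peaks. A promoter of the antisense transcript A130023I24Rik inside Adam12, a metalloprotease of mesenchymal cells (chromosome 7, 134230677 to 134232128), had 154, 242 and 243 in Panc_OFF and 509, 399 and 256 in Panc_ON. In the liver it had 18.5 and 11.1 (OFF) and 118 and 74.1 (ON), and in the lungs 50.6, 9.78 and 81.0 (OFF) and 162, 189 and 107 (ON). The average log2 fold change was 1.84 ± 0.33 (adjusted p = 0.00855). The Cux1 member rose by 1.22 ± 0.21 (adjusted p = 0.00748), and members assigned to Furin, a protease that matures TGF-beta (63.3 kb away), Prkag2, a subunit of AMP-activated kinase, and 1 in an intron of the adhesion gene Ncam1 by 1.30 ± 0.26, 1.43 ± 0.35 and 1.11 ± 0.23 (adjusted p = 0.0120, 0.0292 and 0.0151).

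The Gli2 intron (chromosome 1, 119033842 to 119034589) was the other lower member whose groups did not overlap in any organ. Gli2 is a transcription factor of the hedgehog pathway. It had 293, 323 and 423 in Panc_OFF and 225, 157 and 72.8 in Panc_ON, 120 and 66.9 against 34.9 and 20.3 in the liver, and 62.6, 78.2 and 107 against 27.0, 47.9 and 20.5 in the lungs. The average change was -1.47 ± 0.25 (log2, SE; adjusted p = 0.00682), while no organ passed the threshold alone (adjusted p = 0.11, 0.166 and 0.424 in the pancreas, liver and lungs).

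Genes of the TGF-beta and SMAD pathway held members at about the share of all peaks. Of 595 peaks at 42 genes, 29 (4.87%, against 4.68% of all peaks) were members, at 15 genes. None of the list's 40 promoter peaks was, against 2.17% of all promoter peaks. Among ligands, Tgfb2 had an intronic member at 151 ± 50.0 (SD, n = 6) in the pancreas, and Tgfb3 5 members. Among receptors, Tgfbr2 had 4, the highest at 282 ± 130 (SD, n = 6). None of the 29 was called in any single organ. Averaged over organs 1 was called, a member 66.4 kb from Tgfb3 in an intron of Ttll5, which had 112, 149 and 200 in Panc_OFF and 244, 213 and 86.6 in Panc_ON, and rose by 0.94 ± 0.28 (adjusted p = 0.0603) with a larger change in the liver (1.97 ± 0.55) than in the pancreas (0.14 ± 0.45). Of the mesenchymal list 1 member was called on average, 30.1 kb from Snai2, a repressor of epithelial genes, at 1.13 ± 0.38 (adjusted p = 0.0932). It had 60.6, 94.7 and 110 in Panc_OFF and 164, 170 and 182 in Panc_ON, and here Panc_ON_3 was the highest pancreas library. No fibroblast member was called in any of the 4 comparisons, and the list's 42 members had a median log2 fold change of 0.01 in the pancreas.

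Of the members that rose on average a larger share carried AP-1 matches than of members at large, at 57 of 121 (47.1% against 25.7%), a difference that was not tested. CAGCTG was found in 13 of the 121 (10.7% against 20.5%) and CAGATG in 32, the same share as in the members at large, so that either form was at 35.5% against 42.1%. All peaks that rose on average had AP-1 at 51.9% and CAGCTG at 10.6%, close to the shares in these members. Of the 12 that fell, 5 had CAGCTG and 1 AP-1.

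The rule bounds the liver and lung means of every member from above, so nothing is read from a comparison of liver with lungs at the members. Under the same thresholds 1546 members (24.2%) were called for this contrast, against 52.6% of all peaks, with 1240 higher in the lungs and 306 higher in the liver. The balance of directions rested on single liver libraries: it was 467 and 549 without Liv_ON_2, 2071 and 119 without Liv_ON_1.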

How the data were processed

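Accessibility was measured in 16 samples, grouped by their titles. The deposited values are a signal, a normalized count for each peak. To make them, the authors, as their methods state, trimmed (trimGalore, cutadapt) and aligned reads to mm10 (Bowtie2), called peaks (MACS2, p of at most 0.001), merged peaks within 500 bp over all samples, counted reads (featureCounts) and divided by DESeq2 size factors. The submitters' processing notes also name FastQC 0.11.5. Removal of duplicates, a shift for the transposase and the table's filter are not given in the sources used here. If duplicates remained, counting errors are understated. Columns name doxycycline status, read as Smad4 off where it was on, and those of the lungs carry day 15, whereas the labels state 14 days.

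All values (100%) were whole multiples of 1 read within 0.01 reads, so reads could be recovered (22994669 to 38218315 in peaks per sample, 1.43% to 3.56% on the mitochondrial row, which was left out). Peaks were located with GENCODE vM21 and GRCm38.p6. Peak starts were taken as 1-based. A gene name is the nearest start site, not a tested link.

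Tests used limma 3.58.1 under R 4.3.3, with trended and robust variances, on log2(normalized count + 1) with 6 group means. They were fitted on all nuclear peaks with no filter and checked on simulated data. The simulation gave every peak the same dispersion and no organ differences, so it does not show the power at the members. Fold changes on this scale understate low peaks. On recovered reads, edgeR 4.0.16 (quasi-likelihood) called 20 members (0.313%, against 3.81% of all peaks) in the pancreas. There DESeq2 1.42.0 called 62 members (0.969%, against 6.53% of all peaks). The members, gene lists, motifs and tests were chosen with earlier results of these data known. Named members were those of largest ratio or level, of the genes with most members, called with groups that do not overlap, of the highest promoters, of the listed genes and at the edges of the rule. The promoters of Lum, Dcn and Col1a2 and the 4 leading 500 kb windows were picked after their values were seen.

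Motifs were searched on both strands, besides those spelled out in the results: PU.1 (GAGGAAGT), ONECUT (ATCAATAA or ATTGATC), NR5A2 (CAAGGTCA), homeobox (CTAATTA), SOX (ACAATGG), CTCF (CNAGNGGGC), STAT (TTCNNGGAA), NF-kB (GGGANTTCC), IRF (GAAANNGAA), TCF/LEF (CTTTGAA or CTTTGAT), and, added after seeing the data, CAGATG, MEF2, SRF and C/EBP (TTGCNNAA).

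Pairing by replicate number was accepted for lungs alone. Deviations from the group mean of same-numbered samples correlated at 0.491, 0.124 and 0.214 there. They correlated at -0.33, 0.027 and -0.33 in the pancreas and 0.083 in the liver. Differently numbered lung samples reached 0.184 (Lung_OFF_2 with Lung_ON_3) and 0.182 (Lung_OFF_3 with Lung_ON_2), and otherwise lay between -0.340 and -0.248. At the members alone the lung values of same-numbered samples were 0.244, -0.0729 and 0.0353. There Lung_OFF_3 with Lung_ON_2 had 0.199 and Lung_OFF_2 with Lung_ON_3 had 0.0921, against -0.230 to -0.0124 for the others. The correlations therefore do not establish a pairing of mice in the lungs. P-values measure the spread between mice.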

Additional observations from a re-analysis of the deposited data

How the results depend on the processing

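Depth limits the liver and lung values, where members have few reads, and 2 liver samples per group limit every average over organs. The number of members was 10005 at a fold of 2, 3651 at a fold of 5 and 2700 at a minimum mean of 100, and between 5416 (without Panc_ON_1) and 7276 (without Panc_ON_3) when a sample was left out. Their promoter share was 5.17% within 500 bases and 10.1% within 2000 bases. Over whole peaks the CAGCTG share was 45.9%, against 35.5% of all peaks.

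Called members in the pancreas were 41 at a pseudocount of 10, 32 with quantile normalization, 3 with the GC correction, 1 at thresholds of 1 and 0.05, 63 with only the pancreas groups, 20 with edgeR, 62 with DESeq2, 65 with members chosen without Panc_ON_3, and 0 to 58 when a sample was left out. In the liver they were 0 at a pseudocount of 10, with GC correction and replicate block, at the stricter thresholds and with edgeR, 2 with a mean of at least 20, 6 with TMM, 18 with DESeq2, 3 without chromosome 6 from 120 to 150 Mb, 20 with members chosen without Panc_ON_3, and 0 to 114 when a sample was left out. In the lungs they were 25 with DESeq2 (0.391% against 0.684%) and 0 to 1 when a sample was left out (0.0156% against 0.0161%, without Lung_ON_1). On average they were 86 at a pseudocount of 10, 35 at the stricter thresholds, 252 with DESeq2, 406 with members chosen without Panc_ON_3 and 31 to 516 when a sample was left out. For lungs minus pancreas they were 18 with DESeq2 and 0 to 33 when a sample was left out (33 without Lung_OFF_2), and for liver minus pancreas 0 throughout. For liver against lungs they were 873 at a pseudocount of 10, 866 at the stricter thresholds and 1016 to 2190 when a sample was left out.

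With a replicate block in every organ, 12 members (0.188%, against 4.72% of all peaks) were called in the pancreas. For liver against lungs there were 596 (9.32% against 45.2%), and 501 (7.83% against 44.1%) with the GC correction as well. With a replicate block in the lungs only, calls were 23 in the pancreas (0.359% against 6.51%) and 14 in the liver (0.219% against 1.47%). They were 2 in the lungs (0.0313% against 0.0300%), 203 on average (3.17% against 8.33%) and 5 for lungs minus pancreas (0.0781% against 1.75%). The distal chromosome 6 and the choice without Panc_ON_3 were added after seeing the data. No named called member changed sign in any setting. The share of all peaks called shifted with the settings too. In the pancreas it was 0.332% without Panc_OFF_2 and 6.53% with DESeq2, against 3.42% as reported. The cause of these shifts was not tested.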
